A study of Mus musculus with 4 samples.

Results

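The transcripts described here are those of the coagulation and fibrinolysis system, measured in mouse liver. The animals were wild-type males of the inbred strain C57BL/6J. They began at 6 weeks of age on a diet lacking methionine and choline (MCD diet) or on a normal diet, and each diet ran for 20 weeks. Each diet was represented by 2 liver samples, each on its own Mouse Gene 2.1 ST array, so there were 4 arrays and 2 per diet, and the comparison was MCD diet minus normal diet. The MCD diet is a widely used means of producing fatty liver with inflammation in mice. A list of 36 genes was taken: clotting factors, their inhibitors and receptors, the plasminogen system and the enzymes that act with vitamin K. A gene counted as measured where an array row named that gene and no other, and the brightest such row was read. This gave 33 of the 36 genes, among 22180 genes in all. Cpb2 and F2rl1 were not analysed here, and Klkb1 shared its only row with Cyp4v3.

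Coagulation is a chain of proteolytic steps in plasma. Tissue factor binds factor VII, the resulting proteases activate factor X, and factor Xa with its cofactor factor V turns prothrombin into thrombin, which converts fibrinogen into fibrin. A contact arm of factors XII and XI, plasma kallikrein and kininogen feeds the same chain, protein C, protein S and tissue factor pathway inhibitor hold it back, and plasmin, made from plasminogen by the activators tPA and uPA, dissolves the clot. Hepatocytes secrete most of these plasma proteins. Several of them need a vitamin K-dependent carboxylation of glutamate residues (the Gla residues) to bind membranes. Sinusoidal endothelium, macrophages, stellate cells and other cells of the liver supply many of the receptors, plasminogen activators and cell-bound inhibitors.

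In MCD diet livers the transcripts of factors VII, X, XI and XII, protein C, protein Z and the HGF activator Hgfac fell, while those of prothrombin, factor IX and plasminogen did not pass. The plasminogen activators rose, with tPA (Plat) ahead, as did thrombomodulin (Thbd) and, narrowly, the uPA receptor (Plaur). The fibrinogen chains differed by at most 0.12 on the log2 scale. Of the 33 genes measured, 11 passed, 4 higher and 7 lower, at a limma adjusted p under 0.05, where limma is a linear model with moderated variances and the p-values were adjusted over all 22180 genes. Of these 33 genes 12.1% rose and 21.2% fell, while over all genes 9.98% passed, 6.37% higher and 3.62% lower. Brightness matters to this reading, since 25 of the 33 lie among the brightest 25% of genes, where 8.44% rose and 9.59% fell. Of those 25 genes 0 rose and 7 fell. Of the 8 dimmer ones 4 rose and 0 fell, against 5.67% and 1.62% of the other 75% of genes. For 29 of the 33 genes the MCD diet arrays both lay on one side of the normal diet arrays, 12 above and 17 below. Over all genes 54.2% did so (25.0% above and 29.2% below), and 67.3% of the brightest 25%. The median log2 difference of the 33 was -0.12, against -0.03 over all genes.

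**Figure D1:**
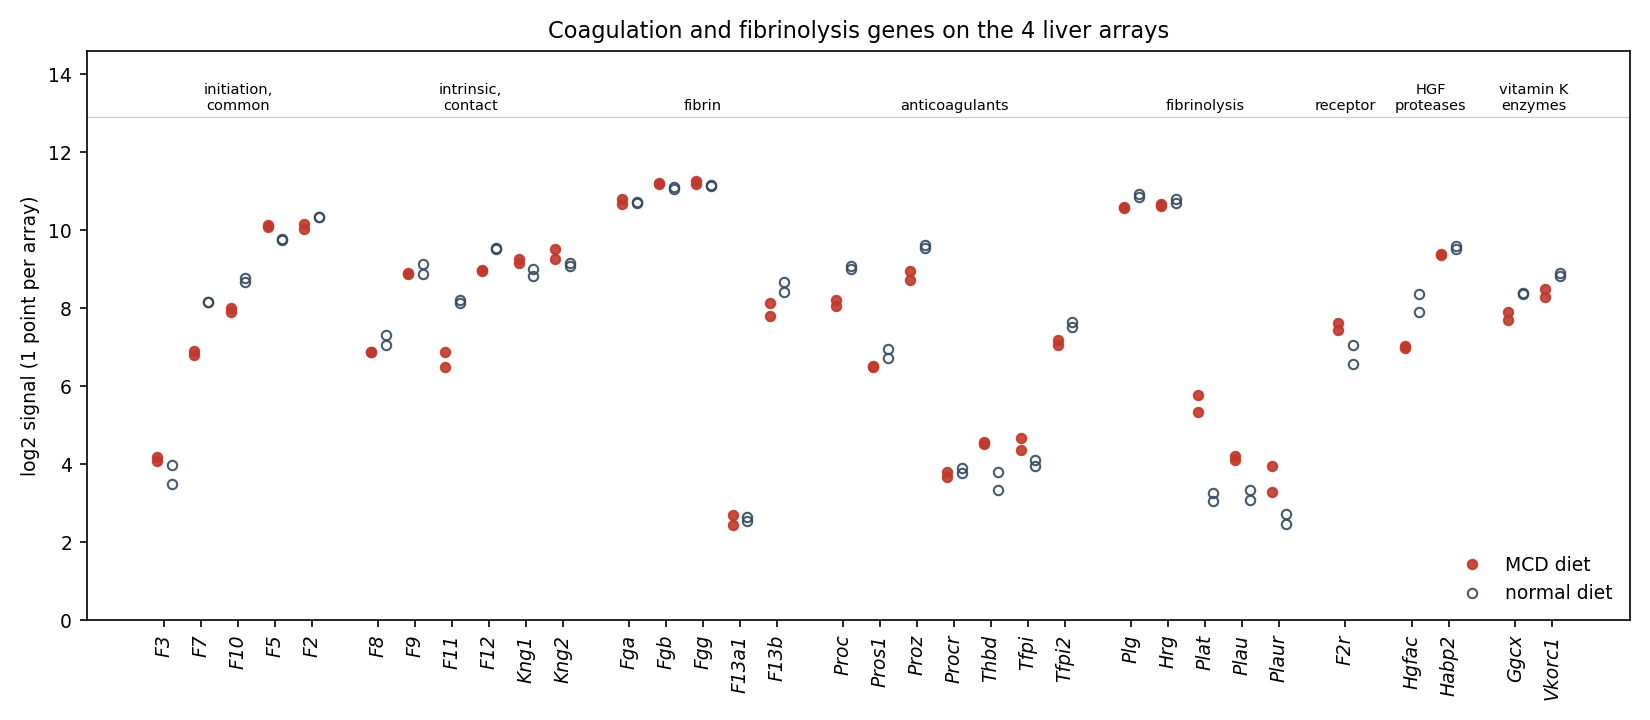
Log2 signal of the 33 measured genes on each of the 4 arrays, grouped by role, with MCD diet arrays as filled points left of the normal diet arrays as open points. Plat, Plau, Plaur and Thbd lie higher on both MCD diet arrays and F7, F11 and Hgfac lie lower, while the points of Fga, F9, F13a1 and Procr overlap; heights of different genes are not comparable.

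The arrays had similar medians, but their signals were not spread alike. The median log2 signal was 2.57 and 2.63 on the MCD diet arrays, against 2.63 and 2.65 on those from normal diet livers. Having only 4 arrays limits the precision. Quantile normalization moved the bright F2 from -0.25 to -0.07 and Plg from -0.32 to -0.16. It moved the dimmer Thbd from 0.97 to 0.78 and Tfpi from 0.49 to 0.27, so the differences below depend in part on scaling. The labels do not say whether the samples came from separate animals, so the p-values describe only how these samples spread, which may be technical. Alb, the albumin gene that defines hepatocytes, was among the brightest signals on every array and differed by -0.04 ± 0.12 between diets. No background or detection values were analysed here, so the sizes of changes that start or end at dim signals are uncertain. All differences below are in log2 units, MCD diet minus normal diet, with the standard error of the fit (n = 2 arrays per diet).

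Among the genes that start coagulation and carry it to thrombin, 2 of 5 fell and 0 rose. Over all genes 3.62% fell and 6.37% rose, and the counts of each role group are small. F7 encodes factor VII, the protease that pairs with tissue factor. Its signal was 6.91 and 6.80 in MCD diet livers and 8.16 and 8.16 in normal diet livers. Both MCD diet arrays lay well below both others, and the gene fell by 1.30 ± 0.12 (2.47-fold lower; limma adjusted p = 0.00274). F10, for the factor X that the tissue factor complex activates, had 8.0 and 7.90 in MCD diet livers, against 8.77 and 8.66 in normal diet livers. The groups did not overlap, and F10 fell by 0.77 ± 0.12 (1.70-fold lower; limma adjusted p = 0.0159). That call was lost when any 1 of the 4 arrays was left out, with adjusted p-values of 0.0581 to 0.0756. The remaining genes of this arm did not pass. F5, the cofactor of factor Xa, had 10.08 and 10.13 in MCD diet livers and 9.76 and 9.75 in normal diet livers, so its arrays did not overlap in the opposite direction. Its difference was 0.35 (95% interval 0.06 to 0.63; limma adjusted p = 0.134), and under quantile normalization it was 0.54 with an adjusted p of 0.0378. F2, which encodes prothrombin, differed by -0.25 (interval -0.55 to 0.05; limma adjusted p = 0.294). F3, the tissue factor gene itself, had 4.18 and 4.07 in MCD diet livers and 3.49 and 3.99 in normal diet livers, a difference of 0.38 whose interval of -0.07 to 0.84 includes 0.

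In the intrinsic and contact arm 2 of the 6 measured genes fell and 0 rose, against 3.62% and 6.37% of all genes. F11, for the contact factor that activates factor IX, showed the largest fall of the 33 genes. It measured 6.48 and 6.88 in MCD diet livers, against 8.22 and 8.13 in normal diet livers, with a wide gap between the groups. The fall was 1.50 ± 0.16 (2.82-fold lower; limma adjusted p = 0.00447). F12 encodes factor XII, the zymogen that starts the contact reaction. It had 8.97 and 8.94 in MCD diet livers and 9.52 and 9.54 in normal diet livers, so replicates lay close together on either side of the gap, and it fell by 0.57 ± 0.12 (limma adjusted p = 0.0329). The F12 call was lost when any 1 array was left out (adjusted p 0.111 to 0.138), under quantile normalization (0.0718) and with the replicate number as a block (0.0583). F9, the factor that F11 acts on, had 8.91 and 8.87 in MCD diet livers and 8.89 and 9.14 in normal diet livers. Its arrays overlapped, and the difference of -0.12 had an interval of -0.46 to 0.21. F8, the cofactor of factor IX, which sinusoidal endothelium makes, differed by -0.30 (interval -0.63 to 0.02; limma adjusted p = 0.238). The kininogen genes Kng1 and Kng2, the carriers of bradykinin, lay higher on both MCD diet arrays, by 0.30 and 0.28, and neither passed (limma adjusted p = 0.227 and 0.297). These genes are close copies of each other, so their probes may share signal. The row that names both Klkb1, for plasma kallikrein, and Cyp4v3 had 8.02 and 8.84 in MCD diet livers, against 9.65 and 9.45 in normal diet livers. It differed by -1.12 and was not tested, and Cyp4v3 fell by 1.04 ± 0.17 on a row of its own (limma adjusted p = 0.0152), a call lost without MCD replicate 1 or normal diet replicate 2 (highest adjusted p 0.0755).

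None of the 5 genes of fibrin formation passed in either direction by limma, and 1 of them, F13b, had an unadjusted p under 0.05. Fga, Fgb and Fgg encode the chains of fibrinogen. Fgb had 11.22 and 11.20 in MCD diet livers and 11.11 and 11.06 in normal diet livers, and Fgg had 11.19 and 11.27 against 11.15 and 11.14. Both lay marginally higher on the MCD diet arrays, by 0.12 (interval -0.16 to 0.41) and 0.08 (interval -0.21 to 0.37). Fga differed by 0.02 with overlapping arrays (interval -0.28 to 0.32). F13b, the carrier subunit of the fibrin-crosslinking factor XIII, had 7.80 and 8.12 in MCD diet livers and 8.67 and 8.41 in normal diet livers. The groups did not overlap, but the difference of -0.58 ± 0.17 missed the threshold (limma adjusted p = 0.0891). F13a1, the catalytic subunit, which macrophages and platelets make, was dim in every sample, at 2.45 and 2.70 in MCD diet livers and 2.64 and 2.54 in normal diet livers, with overlapping arrays.

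The anticoagulant genes moved both ways, with 1 of 7 higher and 2 of 7 lower, against 6.37% and 3.62% of all genes. Proc encodes protein C, which inactivates factors V and VIII. It had 8.05 and 8.22 in MCD diet livers, against 9.07 and 9.0 in normal diet livers, and fell by 0.90 ± 0.13 (1.87-fold lower; limma adjusted p = 0.0103). Without MCD replicate 1 or normal diet replicate 1 its adjusted p was 0.0567 and 0.0511. Proz encodes protein Z, the cofactor of an inhibitor of factor Xa. Its signal was 8.71 and 8.96 in MCD diet livers and 9.63 and 9.53 in normal diet livers, a fall of 0.74 ± 0.14 (limma adjusted p = 0.0258). The call of Proz was lost under quantile normalization (adjusted p 0.0554) and without MCD replicate 1 (0.113), normal diet replicate 1 (0.106) or normal diet replicate 2 (0.0879). Thbd, for the endothelial receptor that turns thrombin into an activator of protein C, ran the other way. It had 4.55 and 4.52 in MCD diet livers and 3.34 and 3.79 in normal diet livers, and rose by 0.97 ± 0.17 (1.96-fold; limma adjusted p = 0.0225). The rise did not pass without MCD replicate 1 (adjusted p 0.101), MCD replicate 2 (0.0783) or normal diet replicate 1 (0.0636). The other 4 genes did not pass. Pros1, for protein S, the cofactor of activated protein C, differed by -0.33 (limma adjusted p = 0.196). Tfpi, the inhibitor of the tissue factor complex, had 4.66 and 4.35 in MCD diet livers and 4.10 and 3.94 in normal diet livers, a difference of 0.49 (interval 0.11 to 0.86; limma adjusted p = 0.112). Its relative Tfpi2, a matrix-bound protease inhibitor, lay on the opposite side, at -0.45 (interval -0.77 to -0.14; limma adjusted p = 0.0835). Procr, the endothelial protein C receptor, overlapped between diets (-0.11, interval -0.43 to 0.20).

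The fibrinolysis genes divided between the activating side, which rose, and the plasma zymogen, which did not. Of the 5 measured, 3 rose and 0 fell, against 6.37% and 3.62% of all genes. Plat encodes tPA, the plasminogen activator that acts on fibrin. It had 5.35 and 5.78 in MCD diet livers, against 3.05 and 3.27 in normal diet livers, the widest gap of all 33 genes. The rise was 2.40 ± 0.18 (5.28-fold; limma adjusted p = 0.00149). Plau, for uPA, the activator that works at cell surfaces, had 4.09 and 4.22 in MCD diet livers and 3.08 and 3.34 in normal diet livers. It rose by 0.94 ± 0.14 (1.92-fold; limma adjusted p = 0.0130). Plaur, the receptor that holds uPA on the cell, had 3.94 and 3.27 in MCD diet livers and 2.48 and 2.71 in normal diet livers. The MCD diet arrays stood apart from each other but above both others, and the rise of 1.02 ± 0.23 passed narrowly (limma adjusted p = 0.0486). Leaving out an array ended the Plau call without MCD replicate 1 (adjusted p 0.0516), MCD replicate 2 (0.0582) or normal diet replicate 1 (0.0555). The Plaur call was lost without MCD replicate 1 (difference 0.68, adjusted p 0.118), normal diet replicate 1 (0.165) or normal diet replicate 2 (0.113). It was lost too under quantile normalization (0.0502), median centring (0.0624) and the replicate block (0.0709). Plg, for plasminogen, had 10.58 and 10.57 in MCD diet livers and 10.93 and 10.85 in normal diet livers. It lay lower without passing, at -0.32 (interval -0.61 to -0.03; limma adjusted p = 0.170). Hrg, a plasma glycoprotein that binds plasminogen and fibrinogen, differed by -0.10 (interval -0.40 to 0.19).

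Outside the clotting chain, F2r encodes the thrombin receptor PAR1. It had 7.45 and 7.62 in MCD diet livers and 7.04 and 6.56 in normal diet livers, and the difference of 0.73 ± 0.19 fell short of the threshold (limma adjusted p = 0.0649), though it passed without normal diet replicate 1 (0.98, adjusted p 0.0378). Hgfac and Habp2 encode plasma proteases related to the clotting factors, and the product of Hgfac activates hepatocyte growth factor. Hgfac had 6.98 and 7.04 in MCD diet livers, against 8.35 and 7.90 in normal diet livers. It fell by 1.12 ± 0.18 (2.17-fold lower; limma adjusted p = 0.0148), a call lost without MCD replicate 1 (adjusted p 0.0763) or MCD replicate 2 (0.0556). Habp2 differed by -0.18 (limma adjusted p = 0.435).

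**Figure D2:**
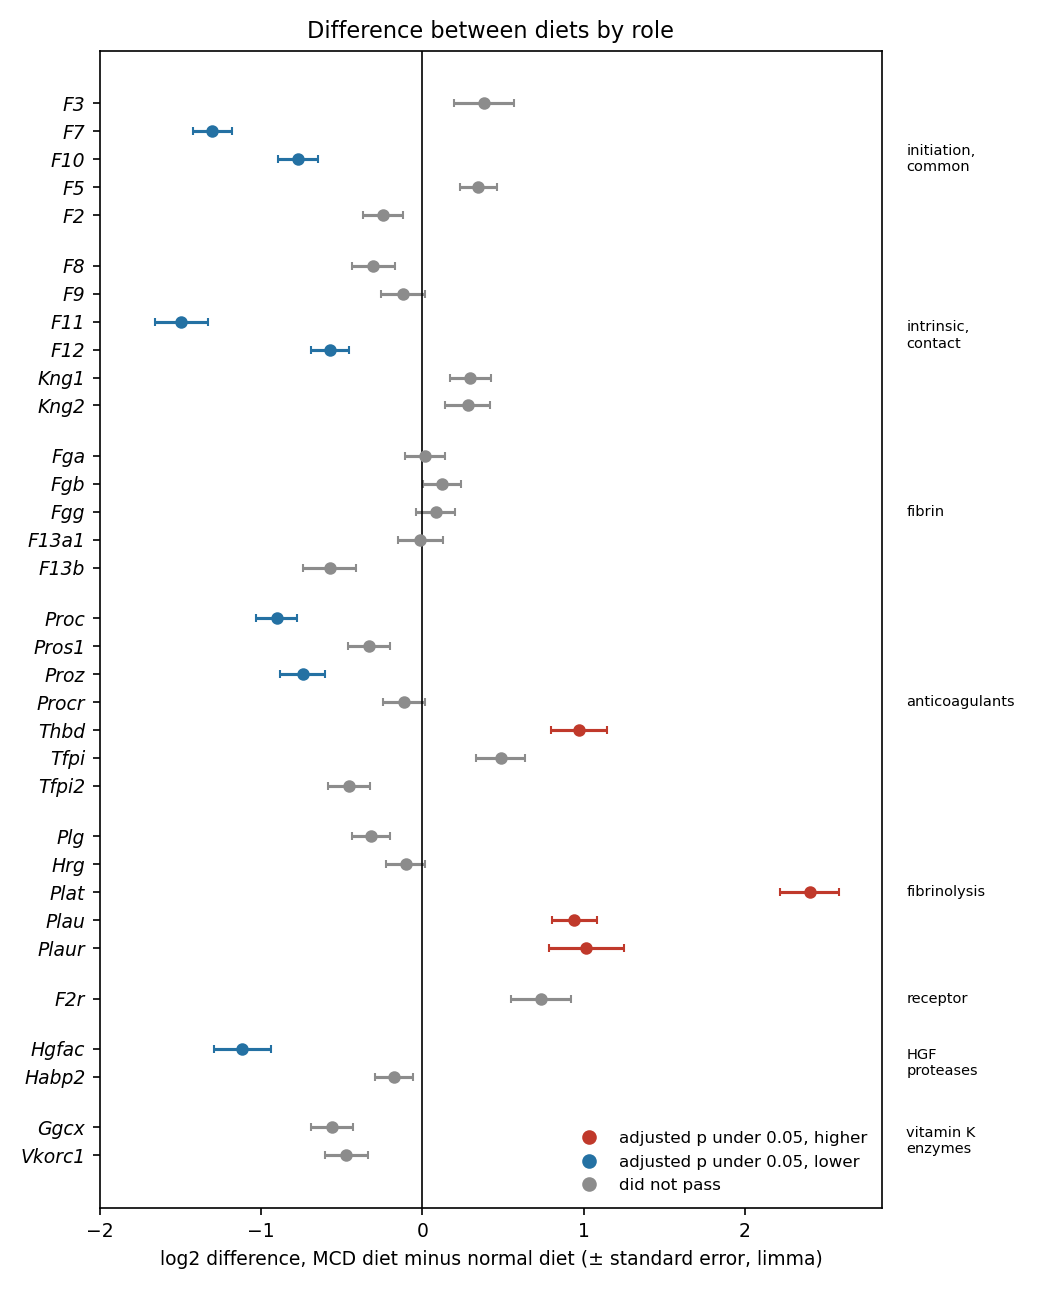
Log2 difference of each of the 33 genes, MCD diet minus normal diet, with the limma standard error as bars, grouped by role down the page; red and blue mark an adjusted p under 0.05. Plat (2.40) and F11 (-1.50) are the extremes, and the fibrinogen chains lie within 0.12 of 0.

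The vitamin K-dependent genes of the clotting chain were also read as a set. F2, F7, F9, F10, Proc, Pros1 and Proz encode secreted proteins with Gla residues, Ggcx encodes the carboxylase that makes those residues, and Vkorc1 encodes the reductase that recycles vitamin K and is the target of warfarin. This grouping was made after the values were seen, so its counts are a description and cannot serve as a test of the set. All 9 lay lower on average in MCD diet livers, with a median difference of -0.56, and 4 of the 9 fell (44.4%, against 9.59% of the brightest 25% of genes). The 4 are F7, F10, Proc and Proz, whose falls are already given above. The arrays did not overlap for 8 of them, F9 being the exception, against 54.2% of all genes and 67.3% of the brightest 25%. Lower values were not particular to this set, since 14 of the 20 measured hepatocyte-secreted genes and 11 of 12 hepatocyte markers also had differences below 0. Differences below 0 were found for 12371 of all 22180 genes and for 2597 of the 5545 in the brightest 25%. Ggcx had 7.70 and 7.91 in MCD diet livers and 8.38 and 8.35 in normal diet livers, with both MCD diet arrays lower. Its difference of -0.56 ± 0.13 just missed the threshold (limma adjusted p = 0.0509), and it passed under 5 of 13 alternatives, such as median centring of the arrays (adjusted p 0.0330). Vkorc1 had 8.28 and 8.50 in MCD diet livers and 8.91 and 8.82 in normal diet livers, a difference of -0.47 that did not pass (limma adjusted p = 0.0882). Of 7 measured Gla proteins with roles outside the clotting chain 2 rose and 0 fell, with a median of 0.43 and 6 of the 7 differences above 0. Over all genes 6.37% rose and 3.62% fell, and 9809 of 22180 differences lay above 0. Gas6, a ligand of the TAM receptor kinases and a relative of protein S, had 7.40 and 7.85 in MCD diet livers, against 5.70 and 5.72 in normal diet livers. It rose by 1.91 ± 0.17 (3.77-fold; limma adjusted p = 0.00259). Prrg4, a membrane protein with a Gla domain, rose by 2.90 ± 0.13 (limma adjusted p = 0.000349) and was dim in normal diet livers, at 2.45 and 2.30.

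Sorted by the cells known to make the protein, the genes that passed lay on opposite sides. Of the 20 measured genes whose proteins hepatocytes secrete, 7 fell and 0 rose, with a median difference of -0.28. Of the 11 made mainly by other liver cells, 4 rose and 0 fell, with a median of 0.49. The difference between these sets was not tested, and the source classes were chosen with earlier results of these data known. The split describes the listed genes only. In the wider list below, which was not sorted by source, the hepatocyte secretion Fgl1 rose by 1.50. The hepatocyte protease Tmprss6 of that list fell by 0.77. Over all genes the median was -0.03, with 6.37% higher, 3.62% lower and 12371 of 22180 differences below 0. Among the brightest 25% the median was 0.03, with 8.44% higher and 9.59% lower. All 7 genes that fell are hepatocyte products, and the 4 that rose are Plat, Plau, Plaur and Thbd. The same 7 lie among the brightest 25% of genes and the same 4 outside it, so source and brightness were not separated. The bulk samples cannot tell fewer cells of a type from less RNA per cell. Of 12 hepatocyte markers, 1 fell (Apoa1, by 0.50 ± 0.12) and 0 rose, with a median of -0.40 and 11 of the 12 differences below 0. The Apoa1 call is weak, lost under 9 of 13 alternatives. The unlogged signals of the 12 markers summed to 20737 and 19500 in MCD diet livers, against 24439.8 and 24245 in normal diet livers. Their part in the result was not tested.

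**Figure D3:**
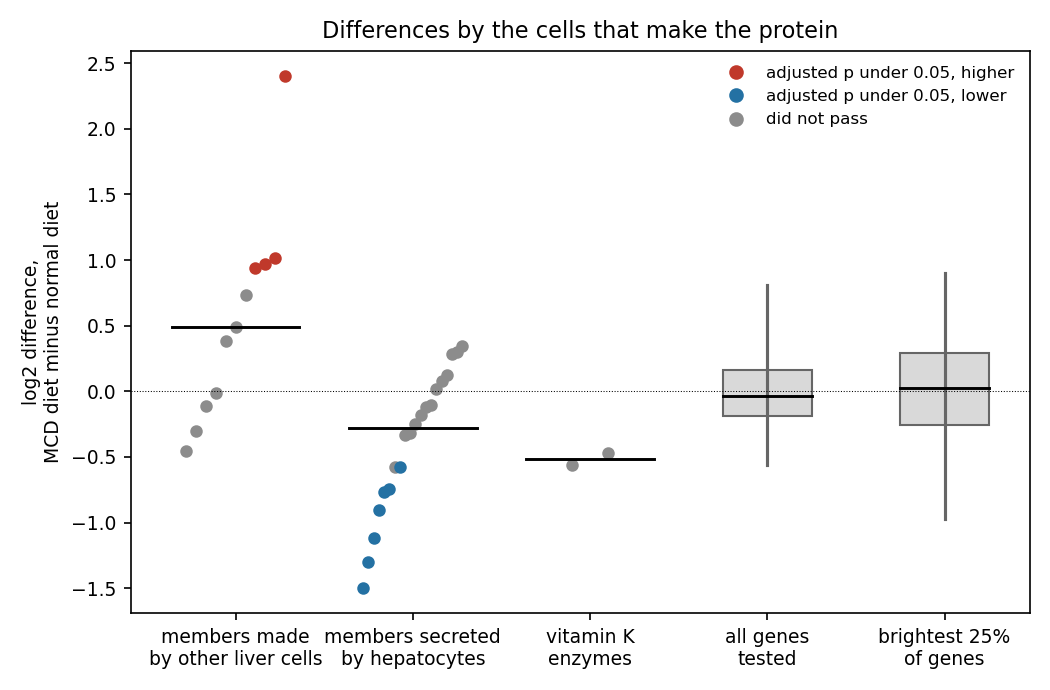
Log2 differences, MCD diet minus normal diet, of the measured genes by the cells that make the protein, 1 point per gene with the median as a black line, beside boxes for all genes tested and for the brightest 25% of genes (box from the 25th to the 75th percentile, line from the 5th to the 95th). The 4 red points among products of other liver cells and the 7 blue points among hepatocyte products are the genes with an adjusted p under 0.05.

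Markers of several non-hepatocyte cells moved as well. Over all genes 6.37% rose and 3.62% fell, so 1 riser in a list of 6 to 10 is not read as a result. All 9 measured markers of recruited and lipid-associated macrophages rose, led by Gpnmb (7.33 ± 0.20) and Lpl (4.01 ± 0.29), and their unlogged signals summed to 2268 and 1589 in MCD diet livers, against 139.5 and 116.9 in normal diet livers. The size for Lpl depends on the row read. The mean of its rows rose by 2.35, less than Trem2 (3.47). Cholangiocyte markers rose in 6 of 7, with Epcam at 2.35 ± 0.19 and Sox9 at 2.0 ± 0.16, and summed to 176 and 176 against 56.6 and 48.8. Stellate cell and myofibroblast markers rose in 4 of 12, among them Pdgfra (2.74 ± 0.12) and Pdgfrb (1.38 ± 0.12), and summed to 726 and 867 against 449 and 371. Endothelial markers went differently. Of 10 markers of sinusoidal endothelium, where F8 is made, 5 fell and 0 rose, including Oit3 (fell by 1.22 ± 0.13) and Dnase1l3 (fell by 0.90 ± 0.18), and the list summed to 711 and 682 against 1040.4 and 943. The Dnase1l3 call was lost without MCD replicate 1 (adjusted p 0.105), MCD replicate 2 (0.111) or normal diet replicate 1 (0.0865). Of 10 markers of vascular endothelium 1 rose and 0 fell, the riser being Cd34 (1.56 ± 0.14), and the sums of 507 and 436 against 492 and 407 overlapped. Kupffer cell markers rose in 2 and fell in 4 of 10, with C1qb at 2.15 ± 0.25 and Cd163 at -2.06 ± 0.13, and summed to 901 and 531 against 493 and 465. These sums lean on C1qb, the brightest of the list on both MCD diet arrays (8.76 and 8.0, against 6.25 and 6.22 in normal diet livers). C1qa rose too, while Clec4f, Timd4, Cd163 and Fcna fell. Mesothelial markers rose in 1 of 6 (sums of 90.4 and 83.2 against 45.7 and 42.8), platelet markers in 1 of 8 (94.1 and 90.0 against 87.9 and 87.2) and neutrophil markers in 1 of 8 (62.8 and 45.3 against 36.1 and 36.3), with 0 lower. The mesothelial sums lean on the 1 riser, Gpm6a (5.35 and 5.39, against 3.32 and 2.96 in normal diet livers). Of the 6 mesothelial differences 4 lay above 0 and 2, of Msln and Lrrn4, below. No marker was listed at 0. Which of these cells carry the signals of Plat, Plau, Plaur and Thbd was not tested.

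Several of the genes are neighbours on the chromosome, by gene order in RefSeq. F7, F10 and Proz lie side by side on chromosome 8, and all 3 fell, by 1.30, 0.77 and 0.74. Of the protein-coding genes beside them, Mcf2l and Atp11a on one side differed by -0.32 and -0.04 and Pcid2 on the other by -0.16, none of which passed (limma adjusted p = 0.278, 0.917 and 0.522). The next gene out, Cul4a, fell by 0.67 ± 0.13 (limma adjusted p = 0.0294), a call lost when any 1 array was left out (highest adjusted p 0.131). The fibrinogen genes Fgg, Fga and Fgb are likewise adjacent on chromosome 3, and none passed. Hrg, Kng2 and Kng1 adjoin on chromosome 16 and did not pass either. F11 lies next to Klkb1 and then Cyp4v3 on chromosome 8, the pair that shares a row. F2r lies beside F2rl1 on chromosome 13 and did not pass, at 0.73. The related F2rl2, beyond Iqgap2 on the other side of F2r, fell by 0.69 ± 0.14. To show what lies upstream of genes that moved together and of one that did not, 250 bases before the annotated start of 5 genes are given 5′ to 3′ on the gene's strand, from RefSeq on build GRCm38.p6. The windows are chr8:13025784-13026033 (plus strand) for F7, chr8:13037058-13037307 (plus) for F10, chr8:13060658-13060907 (plus) for Proz, chr8:45262032-45262281 (minus) for F11 and chr3:83049864-83050113 (minus) for Fgb. Capitals mark matches to the motifs named after them.
F7: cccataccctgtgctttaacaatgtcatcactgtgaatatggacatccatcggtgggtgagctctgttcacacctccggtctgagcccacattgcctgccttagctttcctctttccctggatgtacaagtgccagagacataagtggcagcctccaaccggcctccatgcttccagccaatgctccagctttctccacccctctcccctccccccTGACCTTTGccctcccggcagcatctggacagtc
F10: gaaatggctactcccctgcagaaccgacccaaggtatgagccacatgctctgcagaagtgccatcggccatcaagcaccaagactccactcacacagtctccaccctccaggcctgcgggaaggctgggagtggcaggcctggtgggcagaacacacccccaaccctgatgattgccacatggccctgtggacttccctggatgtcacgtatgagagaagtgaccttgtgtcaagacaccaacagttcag
Proz: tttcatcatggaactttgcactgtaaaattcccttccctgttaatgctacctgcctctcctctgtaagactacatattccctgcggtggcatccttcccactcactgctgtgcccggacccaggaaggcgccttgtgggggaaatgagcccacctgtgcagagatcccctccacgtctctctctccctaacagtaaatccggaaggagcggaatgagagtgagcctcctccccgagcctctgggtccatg
F11: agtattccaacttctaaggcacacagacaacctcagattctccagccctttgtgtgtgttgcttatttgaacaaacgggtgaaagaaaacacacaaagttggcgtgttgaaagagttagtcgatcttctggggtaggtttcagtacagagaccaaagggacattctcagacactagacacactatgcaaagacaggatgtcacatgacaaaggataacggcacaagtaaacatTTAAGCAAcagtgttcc
Fgb: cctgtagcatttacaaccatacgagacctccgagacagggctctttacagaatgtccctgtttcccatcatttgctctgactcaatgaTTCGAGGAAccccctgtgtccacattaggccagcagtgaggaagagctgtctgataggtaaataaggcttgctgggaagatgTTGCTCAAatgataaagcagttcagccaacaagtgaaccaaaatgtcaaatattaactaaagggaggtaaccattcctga

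The motifs searched, on both strands, were CAAAGNNCA for HNF4, TTGCNNAA for C/EBP, TTCNNNGAA for STAT and GGGCGG for Sp1, with HNF1 searched by its consensus, and matches to different motifs could overlap. HNF4, HNF1 and C/EBP are transcription factors known for driving hepatocyte genes. F7 holds an HNF4 match at bases -34 to -26 from its start, F11 a C/EBP match at -17 to -10, and Fgb a C/EBP match at -80 to -73 and a STAT match at -162 to -154. F10 and Proz hold none of these letters in their windows. The HNF4 letters were widened from CAAAGTNCA after the F7 window had been read, and F7 matches only the wider form. The narrower form stood in 1 of the 33 windows of these genes and in 1.19% of all windows. A window was used for 29 of the 36 genes, 33 windows in all. Proc, which also fell, had no window among them, so the counts below for genes that fell leave it out. Windows on 1 chromosome were left out for these genes but not for the set of all windows, and this may have removed a window of Proc. Of the 33, C/EBP letters stood in 11 (33.3%), against 9.56% of all 32851 windows of that length, and HNF4 letters in 4 (12.1%), against 5.49%. HNF1 letters stood in 2 (6.06%, against 0.371%), STAT letters in 5 (15.2%, against 7.02%) and Sp1 letters in 10 (30.3%, against 32.7%). Among hepatocyte products, C/EBP letters stood in 1 of the 6 windows of genes that fell and in 6 of the 11 windows of genes that did not pass. STAT letters stood in 1 of those 6 and in 4 of those 11. These counts are small, a gene can have several windows, and a match is a run of letters and not a bound site.

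**Figure D4:**
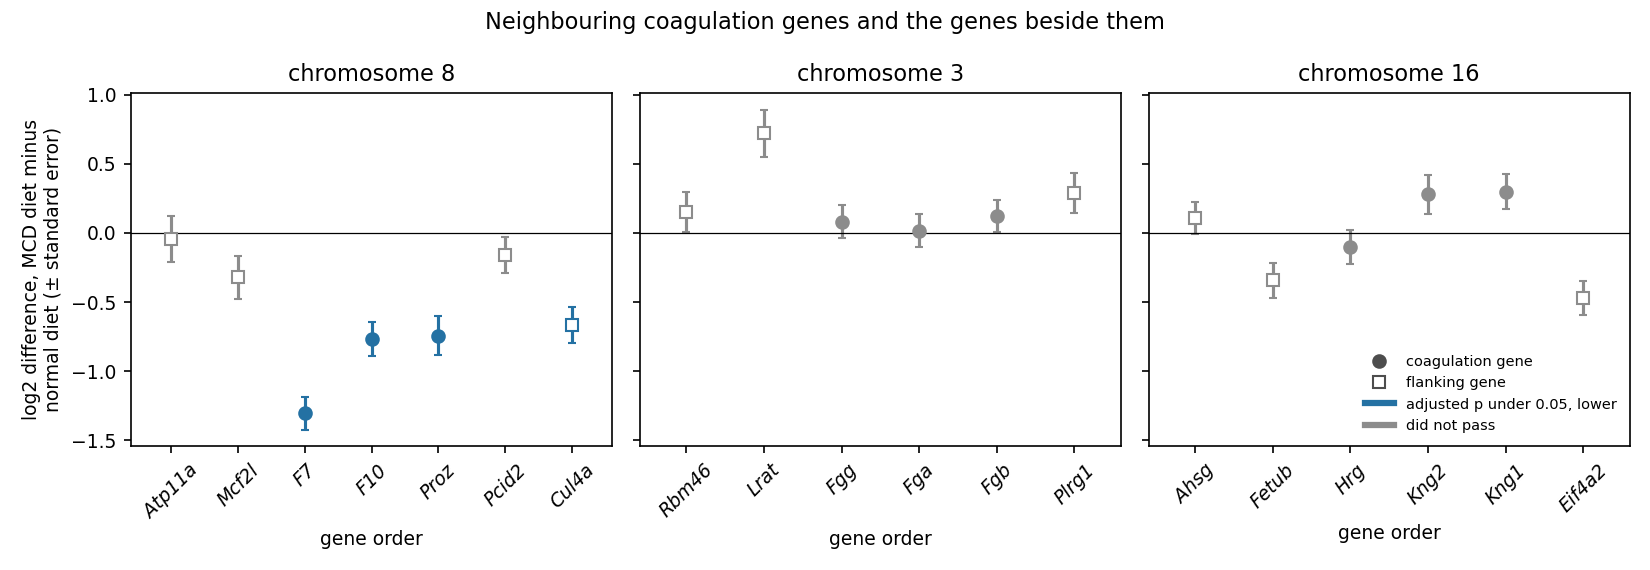
Log2 difference, MCD diet minus normal diet, of neighbouring coagulation genes (filled circles) and up to 2 measured protein-coding genes on either side (open squares), in gene order, with limma standard errors. F7, F10 and Proz lie between -1.30 and -0.74, Cul4a lies at -0.67, and the genes on chromosomes 3 and 16 are grey, since none passed.

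A wider list of 50 genes that act with the system, of which 44 were measured, gave 10 higher and 4 lower, with a median difference of 0.01. These are 22.7% and 9.09% of the list, against 6.37% and 3.62% of all genes. Among partners of the plasminogen system, Anxa2, which binds plasminogen and tPA at the cell surface, had 6.28 and 5.72 in MCD diet livers, against 2.88 and 3.25 in normal diet livers. It rose by 2.94 ± 0.22 (7.66-fold; limma adjusted p = 0.00154). The plasminogen receptor Plgrkt rose by 0.85 ± 0.17. Ace, the enzyme that breaks down bradykinin, rose by 0.91 ± 0.16. Fgl1 and Fgl2 encode proteins with fibrinogen-like domains, a hepatocyte secretion and a prothrombin-cleaving membrane protein. Fgl1 had 9.87 and 10.21 in MCD diet livers and 8.39 and 8.70 in normal diet livers, a rise of 1.50 ± 0.18 (2.83-fold; limma adjusted p = 0.00560), beside fibrinogen chains that did not pass. Fgl2 rose by 1.12 ± 0.12 and Thbs1, a matrix protein that platelets also release, by 1.20 ± 0.12. Hgf, the growth factor gene whose product Hgfac activates, had 7.33 and 7.48 in MCD diet livers, against 6.05 and 5.71 in normal diet livers. It rose by 1.53 ± 0.16 (limma adjusted p = 0.00376), opposite to Hgfac and to Hpn, which encodes the membrane protease hepsin and fell by 0.75 ± 0.14. C4bp, the complement inhibitor that carries protein S in human plasma, rose by 0.62 ± 0.12. Nqo1, a quinone reductase able to reduce vitamin K, rose by 0.90 ± 0.13.

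The remaining genes of that list that fell were Serping1 (by 0.59 ± 0.13), for the C1 inhibitor that also blocks factor XIIa and kallikrein, Tmprss6 (by 0.77 ± 0.12), a hepatocyte membrane protease of iron control, and F2rl2 (by 0.69 ± 0.14), for the thrombin receptor PAR3. Serpinc1, for antithrombin, the main plasma inhibitor of thrombin, differed by -0.14 (interval -0.43 to 0.14), and Serpind1, for heparin cofactor II, by -0.45 (limma adjusted p = 0.0825). Of the 10 risers 6 passed under every alternative, namely Anxa2, Thbs1, Gas6, Hgf, Fgl1 and Fgl2. The other 4 risers, C4bp, Plgrkt, Ace and Nqo1, and all 4 genes that fell each lost their call without at least 1 array. The highest adjusted p-values over the alternatives were 0.117 for C4bp, 0.130 for Plgrkt, 0.0944 for Ace and 0.0594 for Nqo1. They were 0.160 for Serping1, 0.0667 for Tmprss6, 0.151 for F2rl2 and 0.121 for Hpn.

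**Figure D5:**
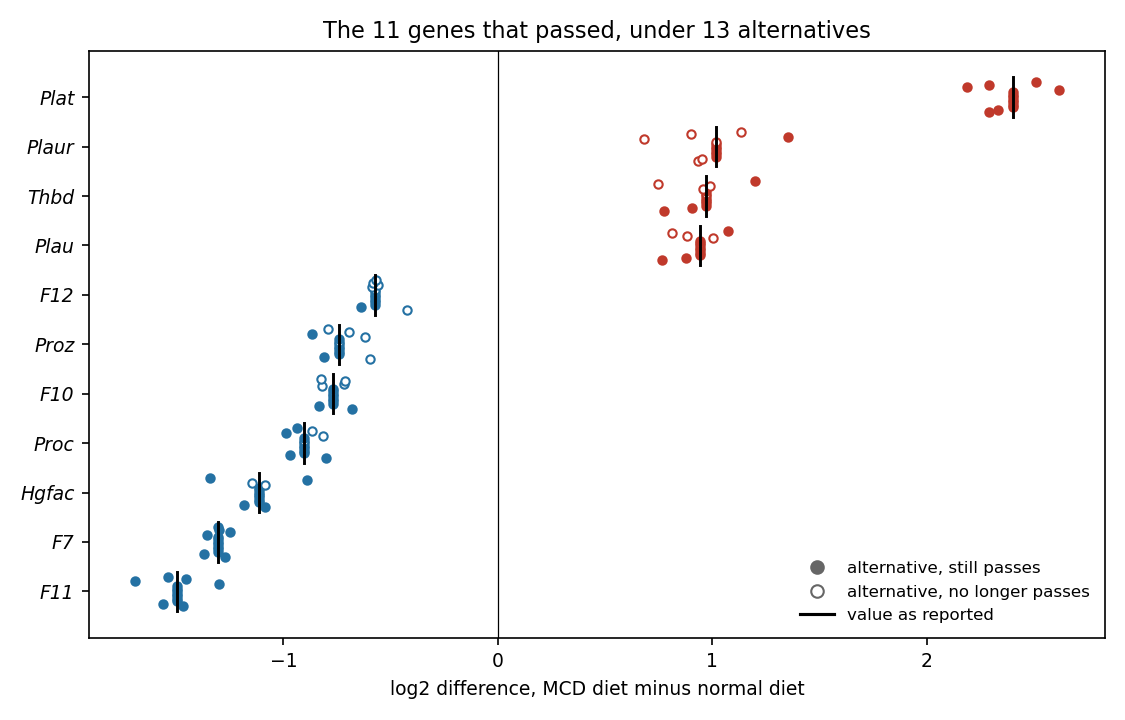
Log2 difference, MCD diet minus normal diet, of the 11 genes that passed, with the reported value as a black line and its value under each of 13 alternatives as points, open where the call was lost. Plat, F7 and F11 have filled points throughout, and no point crosses 0.

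Of the 11 calls, those of Plat, F7 and F11 held under all 13 alternatives, with differences of 2.19 to 2.62, -1.37 to -1.25 and -1.69 to -1.30. None of the 11 changed direction under any of the 13.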

How the data were processed

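Liver RNA was hybridised to Mouse Gene 2.1 ST arrays. The submitters' processing notes name Transcriptome Analysis Console for the deposited values, and no source used here gives its version, summarization or normalization. The authors' values were taken to be log2 signal, which their range of 0.74 to 12.1 implies and no header states, and all fold changes rest on that. Of 34472 rows, the platform annotation named 1 gene for 23521, several for 1814 and none for 9137. The brightest row per gene left 22180 genes, tested as deposited with limma 3.58.1 in R 4.3.3 (2 arrays per diet, no block, two-sided, Benjamini-Hochberg over all genes, threshold 0.05). Moderation raised the residual degrees of freedom to 6.06. Gene names follow the platform annotation, and all 36 symbols were found in RefSeq. Intervals are 95% intervals of the fit.

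The genes, their roles, the source classes and the lists were chosen with earlier results of these data known, the Gla grouping after its values were seen and the HNF4 letters after the sequences were seen. All 36 genes were to be described, with every called gene of the wider list and up to 2 markers per list. Flanking genes were fixed by position. The test was tried on simulated data, and the simulation's variances were redrawn after its first version missed its own target. The 13 alternatives were quantile normalization, median centring, dropping the genes in the dimmest 25% or 50%, an intensity trend, all rows tested, the mean of a gene's rows, 2-fold change with p under 0.05 unadjusted, a block for the replicate number, and leaving out each of the 4 arrays.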

Additional observations from a re-analysis of the deposited data

How the results depend on the processing

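The 33 genes gave 428 values under the 13 alternatives, of which 376 kept direction and side of the threshold, 36 lost a call, 7 gained one and 9 changed sign without passing either way. Those sign changes were all near 0. Fga stood at -0.049 under median centring, -0.050 without MCD replicate 2 and -0.0023 without normal diet replicate 1. F13a1 stood at 0.018 under quantile normalization, 0.117 without MCD replicate 1 and 0.040 without normal diet replicate 1. Quantile normalization gave Hrg 0.038 and Habp2 0.0013, and F9 was 0.0016 without normal diet replicate 2. Outside the 33, the hepatocyte marker Alb stood at 0.069 under quantile normalization. Leaving out 1 array at a time gave -0.050 to 0.084 for Fga, -0.141 to 0.117 for F13a1 and -0.247 to 0.0016 for F9. Scaling moved the balance of all calls, 1412 higher and 802 lower as deposited, to 1303 and 1046 under quantile normalization and 1181 and 1008 under median centring, with 4 higher and 5 lower and with 3 and 8 coagulation genes. Leaving out 1 array, which leaves fewer samples, gave lower counts: the called genes numbered 1050 to 1493 of all genes against 2214, the coagulation genes 1 to 3 higher against 4 and 2 to 4 lower against 7, and the wider list 6 to 8 higher against 10 and 0 to 1 lower against 4. Asking for an unadjusted p under 0.05 and a 2-fold change gave 1155 of all genes, 2 coagulation genes higher and 3 lower, and 6 and 0 of the wider list, since smaller changes are barred. The diets share replicate numbers, but same-numbered arrays hardly deviated together (correlation 0.054 across genes), so the numbers were not taken as pairs. With the replicate block 1950 genes were called, 3 coagulation genes higher and 6 lower, and 9 and 2 of the wider list. With 2 arrays per diet, a gene that did not pass is not shown to be unchanged, and no signal over background was analysed here.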
